A study of Mus musculus with 12 samples.

Results

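Metallothioneins were followed through left ventricles of male mice in which the RNA helicase gene Ddx5 was deleted from heart muscle cells. The genes Mt1, Mt2 and Mt3 were taken by their symbols from both deposited count tables, which makes 3 genes of the 16673 present in both. Mt3 was chosen by its higher counts in knockout than in control libraries of both deletion models, so its differences between knockout and control are given below as a description and without a test.

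The first model, mCKO, carried floxed Ddx5 alleles (DDX5fl/fl) and MYH6Cre+, in hearts of 8-week-old mice. Its control CTR1 was age-matched, carried Ddx5flox/flox alone, and neither group was treated. The second model, iCKO, carried Ddx5flox/flox and Myh6MerCreMer. These mice and their age-matched Ddx5flox/flox controls, CTR2, received tamoxifen into the peritoneum at 20 mg/kg/day on 5 consecutive days per the sample labels. The series description places iCKO collection after 7 days of tamoxifen injection, and whether those days include the 5 injection days is not stated. Each group had 3 libraries. Floxed Ddx5 was shared by all 4 groups, whereas the control labels list no Cre transgene, so Cre and the deletion cannot be told apart. The Myh6 promoter drives expression in heart muscle cells, so fibroblasts, endothelial cells, immune cells and nerves in the ventricle keep the gene, and the measured RNA came from all of them. The labels give no age in weeks for iCKO and CTR2. Tamoxifen, model and table, and possibly age, differ together between the 2 experiments and cannot be told apart.

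Metallothioneins are very small proteins rich in cysteine, whose thiol groups hold zinc and copper ions. MTF1, a zinc-sensing transcription factor, switches Mt1 and Mt2 on through short promoter letters called metal response elements. Glucocorticoids, inflammatory cytokines of the IL-6 family and oxidative stress are also known inducers of Mt1 and Mt2. Mt1 and Mt2 are made in most tissues and buffer free zinc, while Mt3 was first described in brain as a growth inhibitory factor and is known mainly from the nervous system. Mt4 is known from stratified epithelia.

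The coding sequences are shown because the 3 genes resemble each other there. Short reads are told apart by bases that differ in these sequences and in the rest of each transcript. Capitals mark the in-frame cysteine codons of the first-numbered transcript of each gene (GENCODE M21, GRCm38), read 5′ to 3′ with the stop codon included.
Mt1: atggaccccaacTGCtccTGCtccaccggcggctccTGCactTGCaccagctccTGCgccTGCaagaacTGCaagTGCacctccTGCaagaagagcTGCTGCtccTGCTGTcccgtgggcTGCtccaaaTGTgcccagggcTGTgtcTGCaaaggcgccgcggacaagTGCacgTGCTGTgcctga
Mt2: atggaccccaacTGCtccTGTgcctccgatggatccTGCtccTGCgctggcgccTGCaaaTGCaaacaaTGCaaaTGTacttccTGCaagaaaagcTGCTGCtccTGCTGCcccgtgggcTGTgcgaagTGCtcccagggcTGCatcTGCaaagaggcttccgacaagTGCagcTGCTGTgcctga
Mt3: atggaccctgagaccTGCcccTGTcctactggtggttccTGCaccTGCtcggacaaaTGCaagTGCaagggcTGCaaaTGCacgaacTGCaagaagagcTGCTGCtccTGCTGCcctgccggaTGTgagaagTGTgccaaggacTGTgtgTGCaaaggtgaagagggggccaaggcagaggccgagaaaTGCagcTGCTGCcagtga

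Each coding sequence held 20 cysteine codons. Mt1 and Mt2 were both 186 bases long and Mt3 was 207 bases long. Over 186 aligned bases, Mt1 and Mt2 were 79.6% identical, Mt1 and Mt3 73.7% and Mt2 and Mt3 75.3%. No stretch of 50 bases in any transcript of the 3 genes occurred in a transcript of another gene. At 25 bases, Mt1 and Mt3 shared 3 such stretches and Mt2 shared 13 with Pip5k1a.

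All 3 genes lie on the forward strand of chromosome 8 in the RefSeq annotation of GRCm38.p6. Mt3 spans chr8:94152607-94154148, Mt2 chr8:94172618-94173567 and Mt1 chr8:94178883-94180327. Mt4, at chr8:94137204-94139031, completes the cluster. In the iCKO table Mt4 had 2 counts in iCKO replicate 3 and 0 in the other 5 libraries, and the mCKO table has no row for it. Exons of Mt2 overlap the antisense gene Gm45774 on the opposite strand over 432 bases. Libraries were made with a stranded kit, but whether counting used the strand is not given in the sources used here, so reads of the 2 genes could be mixed in the Mt2 counts.

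The short stretch around the TATA letters is shown next because it holds letters that match the core of the metal response element in all 3 genes, which is a match and no evidence of activity. Capitals mark the last metal response element core (TGCACNC or TGCGCNC, searched on both strands) and the letters TATAAA, read on the forward strand of GRCm38. The sites are Mt1 at chr8:94179187-94179216, Mt2 at chr8:94172729-94172758 and Mt3 at chr8:94152693-94152722, and all lie inside those same transcripts as annotated.
Mt1: TGCGCCCggactcgtccaacgacTATAAAg
Mt2: TGCGCTCgacccaatactctccgcTATAAA
Mt3: TGCGCGCccccgcctggggcTATAAAagcc

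In each gene a core began a short way before TATAAA, by 23 bases in Mt1, 24 in Mt2 and 20 in Mt3. Between the annotated transcript start and TATAAA the search found 4 cores in Mt1, 3 in Mt2 and 3 in Mt3. Of 21228 protein-coding transcripts that are numbered first for their gene, 14.6% held at least 1 core in their first 128 bases and 0.377% held 3 or more. Just 3 of the 21228 held 3 or more cores there together with TATAAA in the first 140 bases, and these were Mt1, Mt2 and Mt3. The windows were set after the positions in these 3 genes were known, so that count is a description of the sequences.

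The 250 bases before the RefSeq transcript start were searched in the same way. They are shown for Mt2, at chr8:94172368-94172617, and for Mt3, at chr8:94152357-94152606, because these genes differ most in core number within these windows. Capitals mark the metal response element cores on either strand.
Mt2: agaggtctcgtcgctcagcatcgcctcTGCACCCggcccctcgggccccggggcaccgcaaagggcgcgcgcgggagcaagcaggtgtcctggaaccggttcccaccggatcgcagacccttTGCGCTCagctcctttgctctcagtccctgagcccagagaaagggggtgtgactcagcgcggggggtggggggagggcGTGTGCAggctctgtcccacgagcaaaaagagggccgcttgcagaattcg
Mt3: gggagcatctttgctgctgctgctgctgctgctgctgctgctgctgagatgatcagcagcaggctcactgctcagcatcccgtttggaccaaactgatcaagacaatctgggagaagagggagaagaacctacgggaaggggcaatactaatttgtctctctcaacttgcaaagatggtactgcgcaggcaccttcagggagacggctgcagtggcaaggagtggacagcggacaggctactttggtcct

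Mt2 held 3 cores in this window, which begin 223, 128 and 50 bases before the start. Mt1 held 1, which begins 23 bases before its start, and Mt3 held 0. In all 3 genes the window ends before the TATA site given above. It therefore leaves out the cores counted there, 4 in Mt1, 3 in Mt2 and 3 in Mt3. The Mt1 window, chr8:94178839-94179088, overlaps the Mt1 span given above, so the start used for Mt1 lies inside that span. Of 32851 RefSeq windows of the same length, 21.4% held at least 1 core and 1.26% held 3 or more. The Mt2 window also held 1 match to the antioxidant response element letters TGACNNNGC, 79 bases before the start, as did 10.2% of all windows at least once. None of the 3 windows held the STAT letters TTCNNNGAA, which occurred in 7.02% of all windows.

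Libraries held 19682268 to 25871882 counts. Levels below are CPM, the counts of a gene scaled to a common total, on library sizes scaled by the trimmed mean of M-values (TMM), and 3 counts, the limit that a count of 0 allows, came to 0.106 to 0.157 CPM. Ddx5 itself checked the labels. It averaged 227 ± 8.4 CPM in mCKO and 556 ± 138 CPM in CTR1, and 209 ± 15 CPM in iCKO and 619.8 ± 68 CPM in CTR2 (SD, n = 3 each). In both experiments every knockout library lay below every control library. The labels do not say whether replicates came from separate animals, so the p-values below measure the spread between these libraries. The 10 cardiomyocyte markers listed were all measured, and they summed to 64932 to 94847 CPM in mCKO, 75505 to 107189 CPM in CTR1, 53064 to 62899 CPM in iCKO and 92800 to 104130 CPM in CTR2.

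Mt3, the rarest of the 3 transcripts, was higher in both models. It had 2.76, 2.86 and 3.90 CPM in mCKO replicates 1 to 3, against 0.684, 0.731 and 0.880 CPM in CTR1. In the inducible model it had 2.56, 2.78 and 3.65 CPM in iCKO, against 1.01, 0.377 and 0.918 CPM in CTR2. In both experiments the lowest knockout library stood at more than double the highest control library, so the groups did not overlap. The ratio of the means was 4.15 for mCKO over CTR1 and 3.90 for iCKO over CTR2. Behind these levels stood 63, 57 and 93 counts in mCKO and 14, 14 and 19 in CTR1. The inducible model gave 70, 79 and 98 counts in iCKO and 20, 8 and 18 in CTR2. Summed over 3 libraries, mCKO had 213 counts (95% exact Poisson interval 185.4 to 243.6) and CTR1 47 (34.5 to 62.5). The sums were 247 (217 to 279.8) in iCKO and 46 (33.7 to 61.4) in CTR2. These intervals cover counting error only.

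The fitted log2 fold change of Mt3 was 2.04 in mCKO over CTR1 and 1.96 in iCKO over CTR2, with standard errors of 0.27 and 0.39. Leaving out 1 library at a time kept it between 1.87 and 2.16 in the first model and between 1.63 and 2.21 in the second. These values chose the gene, and no test is attached to them. As a background, 15% of 13353 genes tested in the mCKO experiment and 58.9% of 13548 in the iCKO experiment had groups that did not overlap in either direction. Genes with every knockout library above every control library made up 7.68% and 31.9%. The difference between the 2 fold changes, mCKO minus iCKO, was 0.11 with a standard error of 0.49.

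Mt1, the most abundant metallothionein in all 12 libraries, was not called in either model, and single libraries gave its highest values. It had 118, 84.3 and 209 CPM in mCKO replicates 1 to 3, against 109, 100.4 and 211 CPM in CTR1. Replicate 3 was the highest in both groups, and the groups overlapped over nearly their whole range. Mt1 had 198, 165 and 399 CPM in iCKO, against 119, 397 and 121 CPM in CTR2. Here the high libraries were iCKO replicate 3 and CTR2 replicate 2, which were almost equal, and the groups overlapped. The log2 fold change was -0.03 ± 0.42 in mCKO over CTR1 (standard error, edgeR quasi-likelihood adjusted p = 0.998) and 0.26 ± 0.51 in iCKO over CTR2 (adjusted p = 0.705). The difference between the models was -0.26 ± 0.75 (adjusted p = 0.83), where 20.8% of 13871 genes differed. Without CTR2 replicate 2 the iCKO value was 1.08 ± 0.38 (adjusted p = 0.061), and without both replicate 3 libraries it was -0.55 ± 0.51 (adjusted p = 0.422), so its direction rests on single libraries.

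Mt2 rose in iCKO hearts. It had 161, 124 and 360 CPM in iCKO, against 19.1, 88.4 and 28.3 CPM in CTR2. All iCKO libraries lay above all CTR2 libraries, although CTR2 replicate 2 came close to iCKO replicate 2. The means were 215 ± 127 and 45.3 ± 38 CPM (SD, n = 3 each), a ratio of 4.75. The log2 fold change was 2.25 ± 0.61 (adjusted p = 0.0168), which made Mt2 the only one of the 2 members tested to be called, where 44.8% of all 13548 genes were called. The call was lost without CTR2 replicate 3 (1.99, adjusted p = 0.0615), without iCKO replicate 3 (1.61, adjusted p = 0.0788) and without both replicate 3 libraries (1.36, adjusted p = 0.14). Without CTR2 replicate 2, the high control, the value was 3.18 ± 0.52 (adjusted p = 0.00443).

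In the constitutive model Mt2 had 19.7, 9.70 and 45.8 CPM in mCKO, against 10.7, 10.2 and 33.9 CPM in CTR1. Replicate 3 was again the highest of each group, and the groups overlapped. The log2 fold change was 0.46 ± 0.68 (adjusted p = 0.966), and 0.44 ± 0.16 with the replicate number as a block (adjusted p = 0.122). Neither Mt1 nor Mt2 was called in mCKO. Among 13353 genes edgeR called 0 without the block, which is 0%, while 1164 had an unadjusted p under 0.05, DESeq2 called 310 and limma-voom called 0. With the block edgeR called 1839, or 13.8%. The fold change of Mt2 in mCKO minus that in iCKO was -1.77 ± 1.0 (adjusted p = 0.232), so a difference between the models was not shown by this test.

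**Figure D1:**
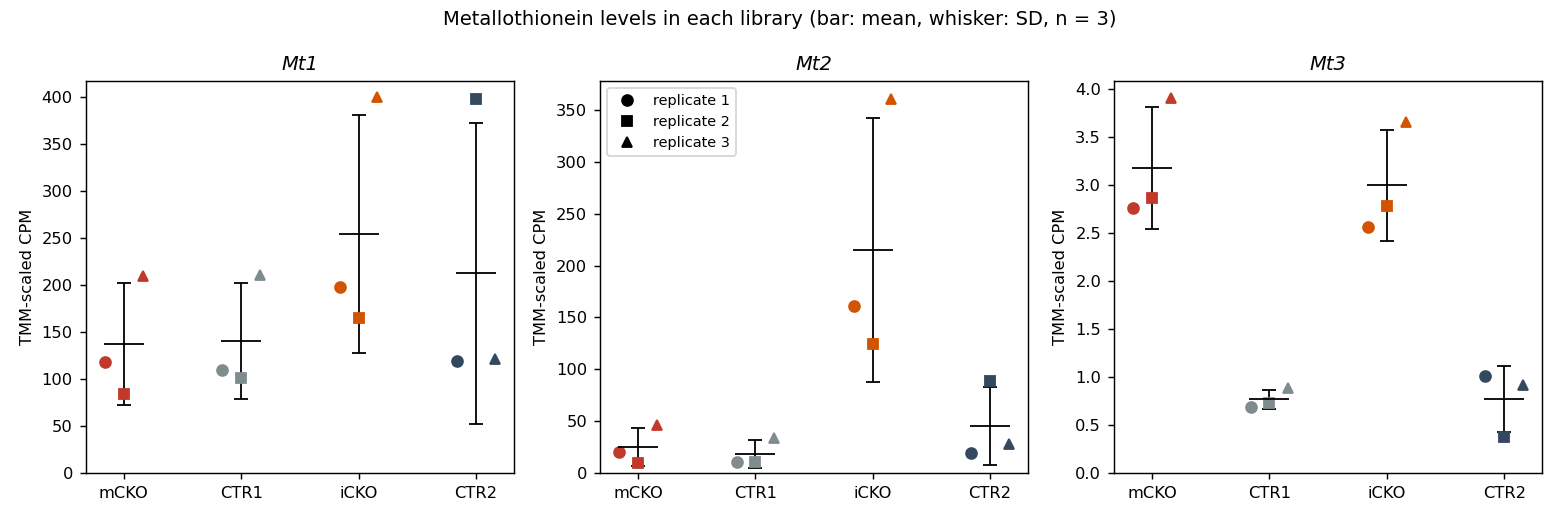
TMM-scaled CPM of Mt1, Mt2 and Mt3 in each of 12 libraries, by group, with replicate numbers as marker shapes, the mean as a bar and the SD as whiskers (n = 3). Mt3 of the mCKO and iCKO libraries sits between 2.56 and 3.90 CPM, above all CTR1 and CTR2 libraries, while Mt1 and Mt2 each have 1 high library in every group.

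**Figure D2:**
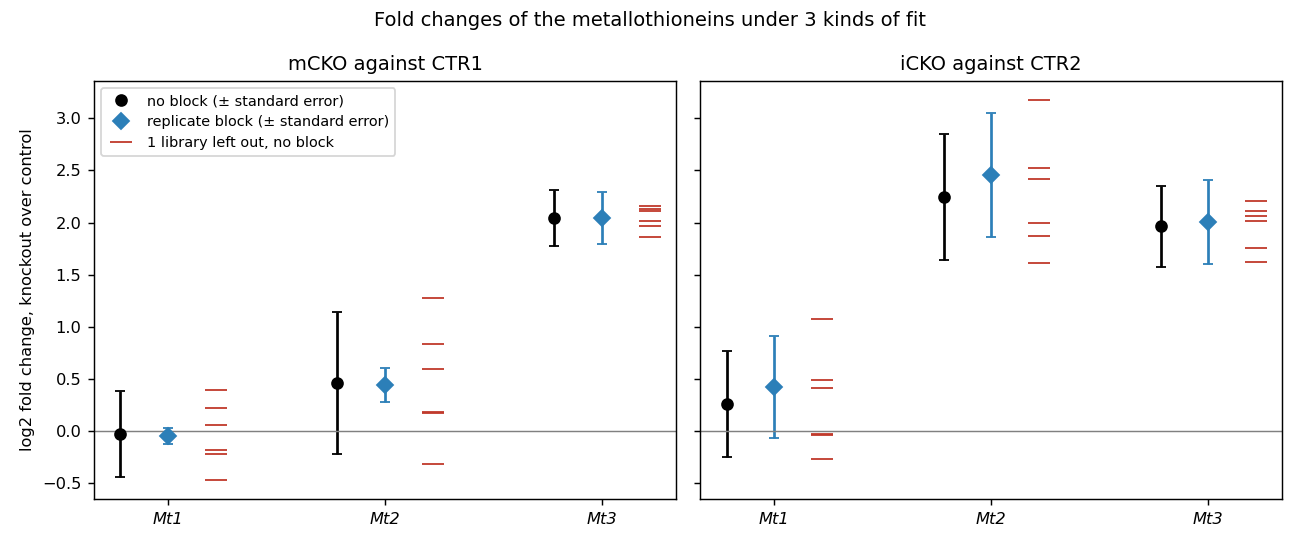
Log2 fold change of each metallothionein, knockout over control, from the fit without a block (black, ± standard error), with the replicate block (blue, ± standard error) and with each library left out in turn (red dashes). Mt3 stays between 1.63 and 2.21 when a library is left out, whereas the Mt1 values fall on both sides of 0 in both models.

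The ratio of Mt2 to Mt1 was higher in every iCKO library than in any other library. This ratio of counts within a library does not depend on scaling between libraries. It was 0.812, 0.750 and 0.902 in iCKO, against 0.160, 0.222 and 0.235 in CTR2. The 3 iCKO ratios were close to each other, although the levels of both genes ranged widely within the group, and they lay far above all CTR2 ratios. The means were 0.821 ± 0.076 and 0.206 ± 0.040 (SD, n = 3 each). The log2 ratio differed by 2.01 (two-sided exact permutation p = 0.1, the smallest that 3 against 3 allows), and by 1.84 to 2.12 with libraries left out. In the constitutive model the ratio was 0.166, 0.115 and 0.219 in mCKO, against 0.0976, 0.102 and 0.161 in CTR1. Those groups overlapped, and the log2 ratio differed by 0.46 (two-sided exact permutation p = 0.2). Compared by replicate number, the ratio was higher in mCKO in 3 of 3 pairs, though the data do not pair replicates 1 and 2 by number.

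As shares of all metallothionein counts, Mt1 made up 54.6% ± 2.1 in iCKO and 82.6% ± 2.7 in CTR2, and Mt2 44.7% ± 2.4 in iCKO and 16.9% ± 2.8 in CTR2 (SD, n = 3 each). Mt3 contributed 0.713% ± 0.24 in iCKO and 0.472% ± 0.35 in CTR2. In mCKO the shares were 84.0% Mt1, 13.9% Mt2 and 2.14% Mt3, and in CTR1 they were 88.9%, 10.6% and 0.528%. Mt3 was thus a minor part of the pool everywhere, with its greatest share, 2.96%, in mCKO replicate 2.

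**Figure D3:**
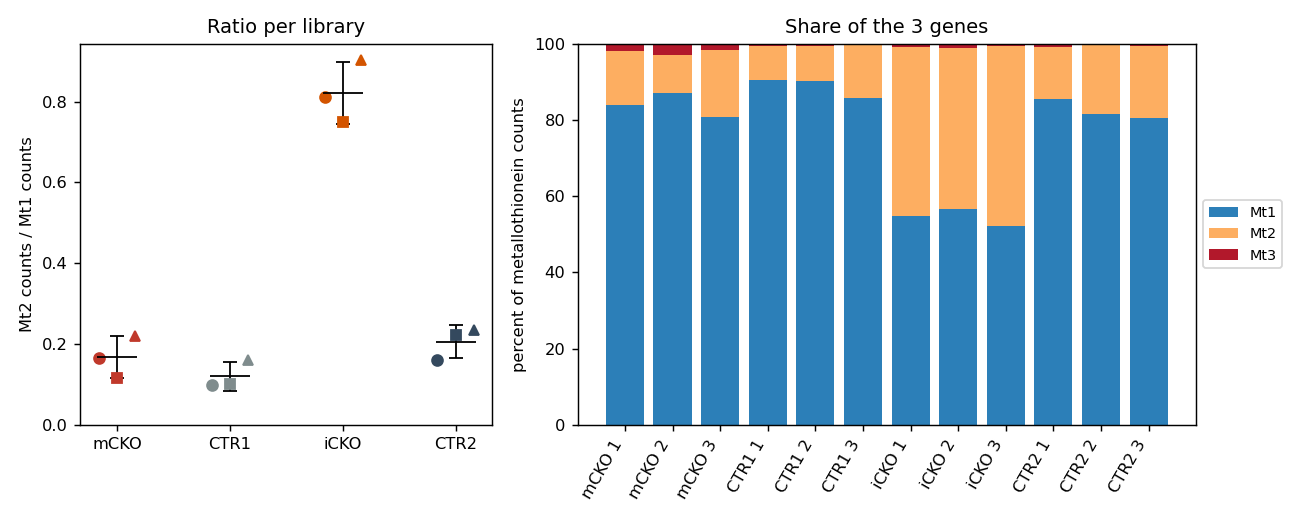
Left, the ratio of Mt2 to Mt1 counts in each library, with the mean as a bar and the SD as whiskers (n = 3, marker shapes as replicate numbers 1, 2 and 3 from left to right within a group). Right, the percent of metallothionein counts from each gene in every library: the 3 iCKO libraries hold 42.5% to 47.2% Mt2, and the other 9 libraries hold 8.84% to 18.9%.

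Levels of different genes were compared per kilobase of the first-numbered transcripts, which are 549 bases long for Mt1, 511 for Mt2 and 536 for Mt3. On that scale Mt1 averaged 463 ± 231 CPM per kilobase in iCKO and 387 ± 292 in CTR2 (SD, n = 3 each). Mt2 averaged 421 ± 249 CPM per kilobase in iCKO and 88.6 ± 74 in CTR2. Mt3 averaged 5.59 ± 1.1 CPM per kilobase in iCKO and 1.43 ± 0.64 in CTR2. In the constitutive model the means per kilobase were 250.1 ± 118 in mCKO and 255 ± 112 in CTR1 for Mt1, 49.1 ± 37 and 35.7 ± 26 for Mt2, and 5.92 ± 1.2 and 1.43 ± 0.19 for Mt3. The order was Mt1, Mt2, Mt3 in every group. In iCKO the means of Mt1 and Mt2 lay within 1 SD of each other.

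Within groups, Mt1 and Mt2 varied more than most genes and Mt3 did not do so in the mCKO experiment. The SD of log2 CPM, pooled over both groups, was 1.05 for Mt2 and 0.626 for Mt1 in the mCKO experiment, at the 98.3rd and 91.7th percentile of 13353 genes. In the iCKO experiment it was 0.989 and 0.850, at the 99.0th and 98.0th percentile of 13548 genes. Mt3 had 0.223 and 0.520, at the 49.5th and 88.5th percentile, beside a median of 0.225 and 0.255 over all genes.

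The 4 libraries that set this spread were the same for Mt1 and Mt2. In log2 CPM, mCKO replicate 3 lay 1.07 above the mean of the other 2 mCKO libraries for Mt1 and 1.72 for Mt2, and CTR1 replicate 3 lay 1.01 and 1.69 above its own mates. In iCKO replicate 3 these differences were 1.14 and 1.35, and in CTR2 replicate 2 they were 1.73 and 1.92. Mt3 did the opposite in CTR2 replicate 2, where it lay 1.19 below the other 2 libraries, on 8 counts against 20 and 18. It lay above its mates in mCKO replicate 3 (0.46), CTR1 replicate 3 (0.28) and iCKO replicate 3 (0.44). Mt2 was over 2-fold above both mates in each of the 4 libraries, as were 3.48% of genes in mCKO replicate 3, 2.92% in CTR1 replicate 3, 1.46% in iCKO replicate 3 and 1.61% in CTR2 replicate 2. Mt1 was over 2-fold above both mates in the iCKO and CTR2 libraries but not in mCKO or CTR1 replicate 3.

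Other genes moved with these libraries. The 16 glucocorticoid-induced genes listed had a median deviation of 0.87 in iCKO replicate 3 and 0.53 in CTR2 replicate 2, beside 0.21 in mCKO replicate 3 and 0.07 in CTR1 replicate 3. In mCKO replicate 1 it was 0.26. In CTR2 replicate 2 and iCKO replicate 3 it was 0.44 and -0.26 for 19 IL-6 and STAT3 genes, and 0.43 and 0.16 for 14 NRF2 targets (mostly antioxidant genes). In mCKO replicate 3 and CTR1 replicate 3 it was 0.16 and 0.33 for 16 IL-6 and STAT3 genes, and 0.23 and 0.23 for 13 NRF2 targets. Marker lists of cell types moved as well, in both models. In mCKO replicate 3 and CTR1 replicate 3 the median deviation was 0.77 and 0.72 for the 10 fibroblast markers and 0.67 and 0.79 for the 10 endothelial markers. It was 0.58 and 0.42 for the 10 macrophage markers and -0.16 and -0.13 for the 10 cardiomyocyte markers. Lists with fewer genes tested moved unevenly in the same 2 libraries: 8 glial genes by 1.09 and 0.14, 6 neuronal genes by 1.49 and 0.18, and 3 adipocyte genes by 1.69 and 3.93. In iCKO replicate 3 and CTR2 replicate 2 the median deviation was 0.70 and 0.24 for macrophage markers and -0.09 and -0.52 for fibroblast markers. There it was -0.03 and 0.12 for endothelial and 0.22 and -0.04 for cardiomyocyte markers. For 7 glial genes it was -0.37 and -0.58, and for 5 neuronal genes 0.95 and -0.04. Red blood cell genes (globins, Alas2 and Slc4a1, 6 of 6 measured) summed to 261 CPM in iCKO replicate 3, against 60.1 and 63.9 CPM in replicates 1 and 2. In CTR2 replicate 2 they summed to 1172 CPM, against 417 and 257 CPM in the other CTR2 libraries. In the constitutive model these sums were 207, 348 and 189 CPM in mCKO and 249, 209 and 332 CPM in CTR1. Replicate 3 had the lowest of the mCKO sums and the highest of the CTR1 sums. The part of these genes and cell types in the metallothionein values was not tested.

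Each metallothionein had its own closest companions across the 12 libraries. Likeness was the root mean square difference of log2 CPM after centring each gene within each experiment, over 12845 genes, and the values share depth and libraries. Closest to Mt1 were H1f2 (0.25), Sdk2 (0.26), Fkbp5 (0.27), Tinagl1 (0.27) and Itgb3 (0.29). H1f2 encodes a linker histone and Fkbp5 a co-chaperone of the glucocorticoid receptor. Closest to Mt2 were Krt80, Hmox1, Mmp3, S100a9 and Gprc5a, at 0.40 to 0.43. Hmox1 encodes heme oxygenase, Mmp3 a matrix protease and S100a9 a calcium-binding protein of neutrophils. Among the closest to Mt3 were Eda2r (0.37), Phlda3 (0.37), Ncam1 (0.39) and St14 (0.41). The centring keeps the gap between knockout and control, for which Mt3 was chosen, so genes close to Mt3 were bound to be higher in both models. In mCKO and iCKO the log2 fold change was 1.86 and 2.18 for Eda2r and 1.68 and 1.86 for St14. Shared control of these genes and Mt3 was not tested. Eda2r and Phlda3 are known targets of p53, and Ncam1 encodes a cell adhesion molecule. Mt1 and Mt2 themselves had a Pearson r of 0.81 across these libraries, given as a description, and the root mean square measure also counts how far each gene moves. By that measure Mt1 ranked 516th in likeness to Mt2, Mt2 ranked 8350th in likeness to Mt1, and Mt1 and Mt2 ranked 8988th and 7186th in likeness to Mt3. The lists depend on the measure: by Pearson correlation, H1f2 alone of the 5 stayed for Mt1, none for Mt2, and Phlda3 alone for Mt3.

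Chromosomal neighbours did not share one pattern. Among the nearby protein-coding genes, Bbs2, the nearest neighbour on the left, fell by 1.46 on the log2 scale in iCKO (adjusted p = 5.9e-04). Nup93, a nuclear pore gene and the nearest neighbour on the right, rose by 1.12 (adjusted p = 3.6e-04). Nudt21, a subunit of the pre-mRNA cleavage machinery, rose by 0.64 (adjusted p = 0.0202), and Herpud1, an endoplasmic reticulum stress gene, fell by 2.57 (adjusted p = 0.00236), at 83.5 ± 14 CPM in iCKO and a widely spread 495 ± 357 CPM in CTR2. Ogfod1 (-0.23) and Nlrc5 (0.30) were not called, and Slc12a3 was too low to be tested. In mCKO none of these neighbours was called without the block, and with it Bbs2 fell by 0.44 (adjusted p = 0.0166) and Nlrc5 rose by 0.66 (adjusted p = 0.0156).

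**Figure D4:**
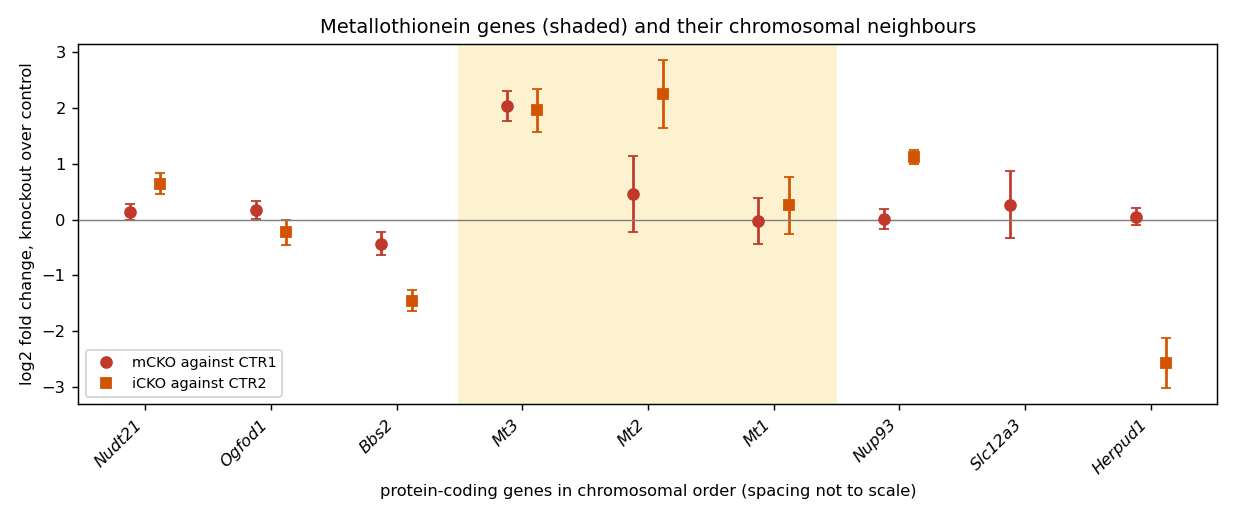
Log2 fold change with its standard error, mCKO over CTR1 (circles) and iCKO over CTR2 (squares), for the metallothionein genes (shaded) and 3 protein-coding neighbours on each side in chromosomal order. In iCKO the neighbours lie on both sides of 0, from -2.57 for Herpud1 to 1.12 for Nup93, and Slc12a3 has no iCKO point.

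The metal-sensing factor gene Mtf1 averaged 24.3 ± 4.8 CPM in iCKO and 29.1 ± 1.2 CPM in CTR2, and 22.9 ± 0.86 CPM in mCKO and 24.8 ± 1.7 CPM in CTR1 (SD, n = 3 each). Its log2 fold change was -0.26 in iCKO over CTR2 (edgeR adjusted p = 0.264) and -0.12 in mCKO over CTR1 (adjusted p = 0.889), so no change was called.

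Genes that move metals were counted next in iCKO, where 25.2% of all tested genes were called higher and 19.5% lower. Zinc exporters, which carry zinc out of the cytosol, had 3 of 7 tested genes higher and 0 lower, led by Slc30a2 at 2.92 ± 0.34 (adjusted p = 3.4e-04). Slc30a2 had low counts, 89, 96 and 115 in iCKO and 6, 13 and 10 in CTR2. Zinc importers had 5 of 11 higher and 1 lower, including Slc39a6 at 1.76 and Slc39a1 at 1.36, and Slc39a3 at -0.74 (adjusted p = 4.4e-04, 2.8e-04 and 0.00411). The median log2 fold change was 0.33 for exporters and 0.27 for importers, beside 0.03 for all genes. Copper handling had 2 of 12 higher and 1 lower, with ceruloplasmin, Cp, down by 1.25 (adjusted p = 8.3e-04), and its median was -0.05. Iron handling had 2 of 14 higher and 2 lower, and its median was -0.04. It held the hepcidin gene Hamp at 4.08 and the iron exporter gene Slc40a1 at -1.72 (adjusted p = 9.2e-04 and 0.00192). Hamp rested on 61, 32 and 97 counts in iCKO and on 3, 3 and 2 in CTR2, near the 3-count limit.

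Lists of genes tied to known metallothionein inducers had unlike counts in iCKO. They mix responding genes with parts of the pathways themselves. The IL-6 and STAT3 list had 12 of 19 genes higher and 1 lower, with a median of 1.65. Among those called higher were the ligand, receptor and signalling genes Il6, Lif, Osm, Osmr and Stat3. Timp1, a protease inhibitor, rose by 6.84, the cytokine gene Lif by 5.40 and the feedback inhibitor gene Socs3 by 3.34 (adjusted p = 1.0e-05, 8.5e-05 and 2.1e-04). NRF2 targets, mostly antioxidant genes, had 6 of 14 higher and 1 lower with a median of 0.60, including the glutathione reductase gene Gsr at 1.30 (adjusted p = 3.6e-04). That list also holds Nfe2l2, the NRF2 gene itself, which was called higher, and Keap1, which encodes its inhibitor. Glucocorticoid-induced genes had 2 of 16 higher and 5 lower with a median of -0.37, including Klf9 at -1.66 (adjusted p = 2.1e-04). Lcn2, called higher, is counted both there and in the IL-6 and STAT3 list. Hypoxia targets had 3 of 14 higher and 7 lower with a median of -0.46, including Egln1 at -1.68 (adjusted p = 1.4e-04). Hif1a, a regulator in that list, was among those called higher.

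In mCKO none of these genes was called without the block. With it, 7.32% of all genes were called higher and 6.45% lower. The IL-6 and STAT3 list then had 5 of 16 higher and 0 lower, zinc importers 3 of 11 higher and 2 lower, iron handling 3 of 13 higher and 0 lower, and glucocorticoid-induced genes 1 of 16 higher and 3 lower. NRF2 targets had 1 of 13 higher and 2 lower, hypoxia targets 0 of 14 higher and 2 lower, and neither zinc exporters (7 tested) nor copper handling (12 tested) had a call.

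**Figure D5:**
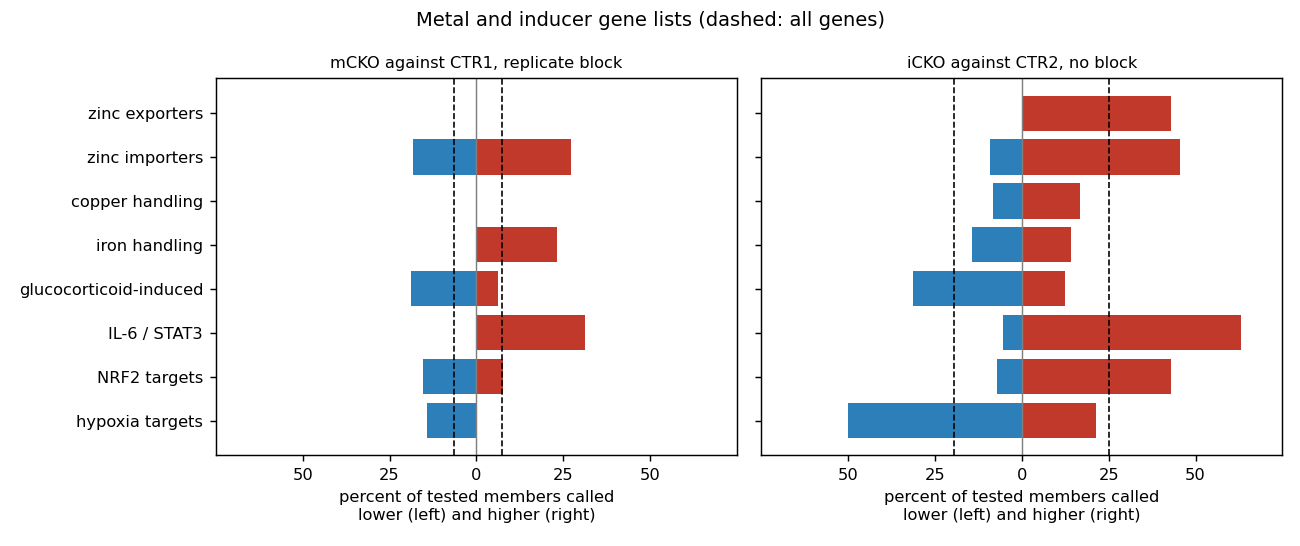
Percent of the tested members of each metal or inducer list called higher (red, right) or lower (blue, left), for mCKO over CTR1 with the replicate block and iCKO over CTR2 without it. Dashed lines mark the same percent over all genes, 7.32% higher and 6.45% lower for mCKO and 25.2% higher and 19.5% lower for iCKO.

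The cell types in the tissue were gauged with marker lists, since in whole ventricle fewer cells of a type and less RNA per cell cannot be told apart. Beside the higher Mt2 in iCKO, fibroblast markers (10 of 10 measured) summed to 3906 to 6277 CPM in iCKO and 938 to 1128 CPM in CTR2. Macrophage markers (10 of 10) summed to 972 to 1960 CPM in iCKO and 361 to 477 CPM in CTR2. In the constitutive model the fibroblast list summed to 1240 to 2220 CPM in mCKO and 1077 to 1798 CPM in CTR1, and the macrophage list to 709 to 1310 CPM in mCKO and 527 to 796 CPM in CTR1. In the constitutive model the sums of both lists overlapped between the groups. Over all tested genes, 25.2% were called higher and 19.5% lower in iCKO, and 7.32% and 6.45% in mCKO with the block. Of the macrophage markers, 10 of 10 were called higher in iCKO, and in mCKO 0 were called without the block and 9 of 10 were called higher with it. For fibroblast markers these counts were 6 of 10 higher and 1 lower in iCKO, and in mCKO 0 without the block and 6 of 10 higher with it. Other lists changed in iCKO too. Red blood cell genes were called lower in 6 of 6, though their sums given above overlapped. Cardiomyocyte markers had 6 of 10 called lower and 0 higher, and smooth muscle and pericyte markers 4 of 10 higher and 4 lower. In mCKO none of these lists had a call without the block. With it, 5 cardiomyocyte markers were called lower, and smooth muscle and pericyte markers had 1 higher and 1 lower. Of 10 endothelial markers 6 were called lower and 0 higher, and of 6 skeletal muscle genes tested 5 were called higher and 1 lower. The skeletal muscle list still summed lower, at 1833 to 2202 CPM in iCKO and 2649 to 2865 CPM in CTR2. It summed to 2721 to 3065 CPM in mCKO and 3301 to 3549 CPM in CTR1. Neither the endothelial nor the skeletal muscle list had a call in mCKO without the block. Adding it gave 0 endothelial calls, while 4 skeletal muscle genes rose and 1 fell. Beside the higher Mt3, the glial list (10 of 10) summed to 10.5 to 13.7 CPM in iCKO and 14.7 to 18.2 CPM in CTR2, and to 16.4 to 30.1 CPM in mCKO and 15.7 to 17.5 CPM in CTR1. The neuronal list (8 of 10 measured) summed to 111 to 249 CPM in iCKO and 20.4 to 22.7 CPM in CTR2. Of 5 neuronal genes tested in iCKO, 3 were called higher and 1 lower, with a median log2 fold change of 2.66. Most of the sum came from Uchl1, at 141 ± 59 CPM in iCKO and 11.0 ± 1.9 CPM in CTR2. Tubb3 and Nefm were the others called higher, at 23.2 ± 7.7 and 2.95 ± 1.8 CPM in iCKO and 0.331 ± 0.16 and 0.459 ± 0.14 CPM in CTR2. The neuronal gene Stmn2 was lower in iCKO (edgeR adjusted p = 0.0292), at 4.11 ± 1.8 CPM in iCKO and 8.23 ± 1.0 CPM in CTR2, and Th was at 0 in all CTR2 libraries. In the constitutive model the neuronal list (10 of 10 measured) summed to 20.4 to 50.7 CPM in mCKO and 23.3 to 38.1 CPM in CTR1, and those groups overlapped. The part of these cell types in the metallothionein levels was not tested.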

How the data were processed

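RNA of 12 left ventricle libraries was analysed. Per the labels' protocols, Trizol was used to extract RNA and a stranded TruSeq mRNA kit to make libraries. Per the submitters' processing notes, HISAT2 and DESeq were used with GRCm38. Their versions and the counting tool are unstated in the labels. The authors deposited whole-number counts per gene, 1 table for each experiment, and no depth or filter beyond that is stated. Each experiment was fitted alone with edgeR 4.0.16 (R 4.3.3): filterByExpr (minimum count 10, minimum total 15), TMM scaling, robust quasi-likelihood test and Benjamini-Hochberg adjustment over all tested genes, called at 0.05. The difference between the models was fitted over all 12 libraries and the genes in both tables. Alternatives were DESeq2 1.42.0, limma-voom 3.58.1, other scaling, no filter, a replicate block and libraries left out.

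Same-numbered mCKO and CTR1 libraries deviated together across genes (r = 0.464, 0.532 and 0.823). So did mCKO replicate 1 with CTR1 replicate 2 (0.553) and mCKO replicate 2 with CTR1 replicate 1 (0.529). Replicate 3 of either group ran against replicates 1 and 2 of the other (r = -0.680 to -0.623). These values set replicate 3 apart and do not pair replicates 1 and 2 by number. The block is given beside mCKO results where it bears on them, and what the numbers mark is not stated. No 2 libraries of a group agreed within sampling noise. The scripts were checked on simulated counts. Genes other than the 3 members were named by a fixed rule: up to 4 called genes per list, 4 neighbours on each side, and the 5 most alike, of which some are not reported here; Uchl1, Tubb3, Nefm, Stmn2 and Th were picked after their values were seen. The members and lists were chosen with earlier results of these data known. Promoter windows came from RefSeq GRCm38.p6 and transcripts from GENCODE M21.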

Additional observations from a re-analysis of the deposited data

Results flagged for a closer look

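The effect of the deletion differed between the models for 3 of 8 chromosomal neighbours of the metallothionein genes, by the test of the difference itself (edgeR quasi-likelihood), where 20.8% of 13871 genes differed. With so few neighbours, nothing particular to the locus is read from that count. The log2 fold change in mCKO minus that in iCKO was 1.06 ± 0.28 for Bbs2 (adjusted p = 0.0201), -1.07 ± 0.22 for Nup93 (adjusted p = 0.00635) and 2.66 ± 0.53 for Herpud1 (adjusted p = 0.00478). Groups of 3 libraries are too small for a test of single outlying libraries, and neither Mt1 nor Mt2 differed between the models by this test.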

How the results depend on the processing

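With 3 libraries a group, 1 library could decide a metallothionein result, and Mt1 and Mt2 depended on it most. Mt2 in iCKO over CTR2 kept its direction in every alternative run and its call under DESeq2, limma-voom, both other scalings, no filter and the replicate block (2.46). With a library left out it ranged from 1.61 to 3.18. It missed the threshold without iCKO replicate 3, without CTR2 replicate 3, without both replicate 3 libraries (1.36) and in the block without replicate 3 (1.71, adjusted p = 0.139). Mt1 in iCKO ranged from -0.27 to 1.08 with a library left out. It was -0.55 without both replicate 3 libraries and -0.32 in the block without replicate 3, and it passed the threshold in the block without replicate 2 (1.23, adjusted p = 0.00723). In mCKO, Mt1 ranged from -0.47 to 0.40 with a library left out, and was 0.048 on library sizes alone and 0.051 in the block without replicate 2. Mt2 in mCKO ranged from -0.31 to 1.27, and it passed the threshold in the block without replicate 2 (0.63, adjusted p = 0.0103). The difference between the models for Mt1 ranged from -1.13 to 0.26, and was 0.48 without both replicate 3 libraries. The cause of these shifts was not tested.

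The number of genes called in mCKO was 0 to 1 with a library left out and 4 without the filter, against 310 with DESeq2, 1040 without both replicate 3 libraries and 1839 with the replicate block. With the block and without replicate 1, 2 or 3 it was 1508, 1093 and 388, alternatives that were chosen after seeing the data. Same-numbered iCKO and CTR2 libraries did not deviate together (r = 0.06, -0.09 and -0.16), so they share only a number. There the block called 5491 genes, and for Mt1 and Mt2 it changed no call. Mean levels on library sizes alone stayed within 1 SD for each member and group. Mt3 control values rest on 8 to 20 counts a library, which limits the precision of its fold change.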
